A study of Drosophila melanogaster with 12 samples.

Results

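The Scalloped (Sd) DamID list of the study holds 4064 distinct intervals of the dm6 genome, called for Dam-Sd over Dam-only in the larval central nervous system, of 43207 distinct intervals over all of its peak lists. Every distinct interval of the Sd list, with the gene identifiers that stand beside it, is described here.

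Sd is the single TEAD-family transcription factor of Drosophila melanogaster. It binds DNA but needs a partner to act on transcription: Yorkie (Yki), the effector restrained by the Hippo kinases, or Vestigial in wing tissue, and in their absence the corepressor Tgi keeps its targets down. Growth and survival genes such as Diap1, Myc, CycE, E2f1 and the microRNA bantam are textbook targets in growing epithelia, and in larval neurons Sd is known to work in maintaining the differentiated state.

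The occupancy map came from targeted DamID, in which the bacterial adenine methylase Dam is expressed at a low level in chosen cells and methylates the GATC sites it comes near. Dam-Sd larvae carried the fusion transgene p[pUAST-LT3-Dam-Sd] at attP2 (2 samples), and Dam-only larvae carried p[pUAST-LT3-Dam] at the same site (2 samples). Animals of both groups were wandering larvae of the third instar that also had a w background, tubGal80TS, UAS-GFP and the driver GMR31H08-Gal4, so both read only the cells in which that driver is active, and the labels do not say which cells those are. The rearing temperature given for both groups is 25°C. Both were held at 18°C for 4 days and at 29°C for the last 24 hours, when Gal80 no longer blocks the driver. RNA came from a separate group, 3 pools of cells sorted for GFP from larvae that carried the nerfin-1 reporter P[nerfin-1.GFP-NLS.SV-40] (line iA) and reared at 25°C, so the RNA and the binding were read in cell populations that may differ. Replicates of each DamID group entered 1 deposited list with no height, score or value per sample, so no spread between replicates and no test between Dam-Sd and Dam-only can be given, and every comparison below is a description.

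The intervals stand beside FlyBase gene identifiers, which made 5073 rows and 4981 distinct pairs of a peak and a gene over 4863 identifiers. A gene "named" below is one that the authors' list pairs with a peak. Because a peak within a long gene was often paired with another gene, a second count "by position" takes each peak that overlaps a gene or the 1 kb on either side. Of 13624 protein-coding genes whose identifiers could be looked up, 3896 were named (28.6%, 95% Wilson interval 27.8 to 29.4), and 4841 had a peak by position (35.5%). Both counts held for 3539 genes, while 357 were only named and 1302 had a peak only by position.

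The sorted cells that supplied the RNA carried neuronal transcripts. Of 9 neuronal markers, 8 were listed in the authors' table of expressed genes, among them elav, fne, brp and nSyb, and Rbp9 was not. The listed neuronal markers summed to 8336, 8361 and 7968 counts scaled to 1000000 listed counts (CPM) in the libraries called S1, S2 and S3. Of the neuroblast markers 1 of 7 was listed (ase, at 31.6, 58.2 and 52.6 CPM), of the glial markers 1 of 9 (gcm), of the hemocyte markers 1 of 6 (Pxn), and of the 6 muscle and 6 testis markers none. The sources used here do not give the rule by which the authors listed genes, the lowest listed count is 99, and a gene that is not listed has no value here. In such bulk RNA, fewer cells of a type and less RNA per cell cannot be told apart.

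Peaks were short stretches with a long upper tail. The median length was 1139.5 bp (95% order-statistic interval 1113 to 1172), the middle 50% of peaks ran from 707 to 1983 bp, and the range was 97 to 22597 bp. Lengths of at least 1 kb were found for 2340 peaks (57.6%), of at least 2 kb for 1009 (24.8%), of at least 5 kb for 142 (3.49%) and of at least 10 kb for 13. The longest 10% of peaks, 406 stretches of 3311 bp or more, held 31.8% of the 6552 kb covered. DamID resolves binding only to the stretches between GATC sites, and peak length is not a measure of how strongly Sd was bound.

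**Figure D1:**
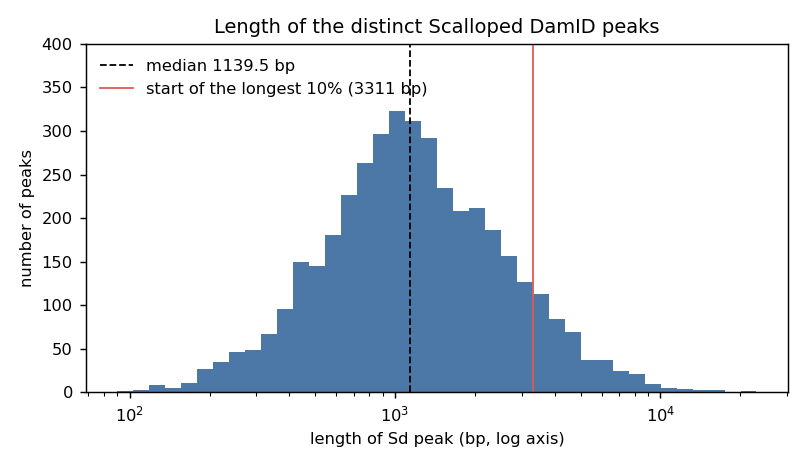
Number of Sd peaks (vertical axis) by length in bp (horizontal axis, log scale) for the 4064 distinct peaks. The dashed line is the median of 1139.5 bp and the solid line marks 3311 bp, above which lie the longest 10%; the tail ends at 22597 bp.

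The longest peak covered Mnt, which encodes the Max-binding transcriptional antagonist of Myc. It ran over chrX:3673511-3696107, or 22597 bp, took in 75.6% of the gene and overlapped 16 peaks of open chromatin (ATAC-seq) called in the sorted cells. A peak of 17143 bp lay within CadN, the neuronal cadherin (chr2L:17738724-17755866), and overlapped 6 ATAC peaks. Several of the next longest lay inside a transcription factor or adhesion gene but were paired in the list with a smaller neighbour. The 14241 bp peak paired with CG14505 and Tango8 also overlapped sbb, the 12822 bp peak paired with lncRNA:CR45963 lay in the teneurin gene Ten-m, and the 10831 bp peak paired with CG15233 lay in the zinc finger gene jing. The 15432 bp peak at chr2R:13328893-13344324 overlapped no protein-coding gene and was paired with lncRNA:CR44206; it covers the microRNA gene mir-184, which the list paired with a neighbouring peak of 1624 bp. A peak of 14229 bp at chr2R:21032089-21046317, paired with lncRNA:CR45148, likewise overlapped no protein-coding gene. Others over 10 kb were paired with CG2217 and CG42740 (12270 bp), with Pdk1, a kinase of the insulin pathway (11690 bp), and with erm, which restricts the fate of intermediate progenitors (10878 bp, which also overlaps Der-1). At the other end, the shortest were paired with CG1532 (97 bp), lncRNA:CR44459 (115 bp), Ugt37B1 (116 bp), CG12869 (119 bp) and Clic (124 bp).

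The share of peaks that held open chromatin of the sorted cells followed their length. In 4 groups of peak length from shortest to longest, 57.2%, 70.1%, 84.2% and 95.8% of peaks overlapped an ATAC peak by at least 1 bp. The share of the bound sequence that was open did not follow that order, at 37.3%, 39.2%, 42.6% and 37.2%. A longer stretch has more room to meet an ATAC peak, so the first set of shares carries the length of the peak in it.

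Sd peaks lay both at gene ends and inside genes. An end of a protein-coding gene was covered by 1634 peaks (40.2%, median length 1445.5 bp), and 1660 lay wholly inside such a gene (40.9%, median 950.5 bp). Only another kind of gene was overlapped by 178 peaks (4.38%), and 591 overlapped no gene (14.5%). The gene table used gives no strand, so starts and ends of transcription were not told apart. Peaks paired with a single gene numbered 3298, while 659 were paired with 2 genes, 84 with 3 and 22 with 4 or more, up to 10. In 78.6% of the pairs whose gene has a position the peak overlapped the gene it was paired with, and 654 pairs were over 1 kb apart, up to 5000 bp. All 216 protein-coding genes with both ends covered were named, against 1967 of 2213 with 1 end covered (88.9%) and 1097 of 1303 with a peak only inside (84.2%).

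Most genes had 1 peak, and a small group had many. In the list's own pairing 93 of the 3896 named genes had at least 2 peaks (2.39%), and sick had the most, with 4. By position 927 of 4841 genes had at least 2 (19.1%), 162 had at least 3 and 19 had at least 5. The highest count by position was 8, shared by sick, Ten-a, which is a teneurin that matches synaptic partners, and kirre, an immunoglobulin adhesion protein. E2f1, the cell cycle transcription factor, had 7, as did CG32816 and CG1677, and 6 peaks lay at jing, at the ecdysone receptor gene EcR, at the histone demethylase gene Kdm4B, at CG43867 and at Ptp61F. These are mostly long genes: kirre spans 394149 bp and its peaks covered 2.15% of it, and Ten-a spans 291517 bp with 3.16% covered, while E2f1 spans 40568 bp with 38.4% covered and Kdm4B 21785 bp with 51.5% covered.

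**Figure D2:**
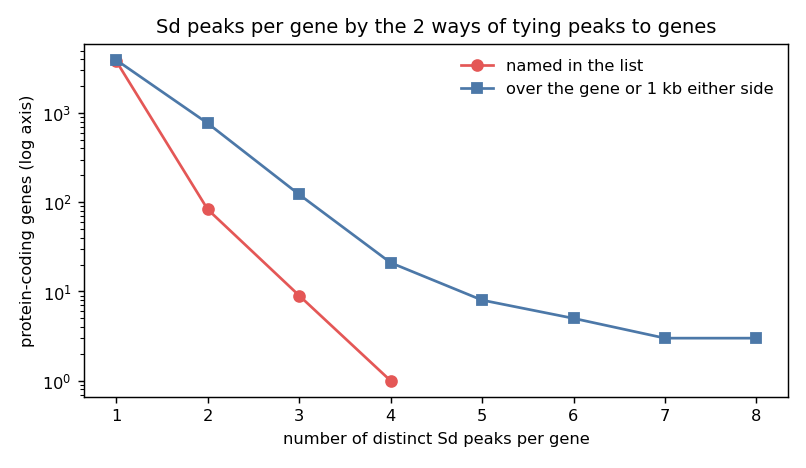
Number of protein-coding genes (vertical axis, log scale) by number of distinct Sd peaks per gene (horizontal axis), for peaks named in the authors' list (circles) and peaks over the gene or 1 kb either side (squares). The pairing of the list stops at 4 peaks with sick, whereas by position 162 genes have at least 3 peaks and the count runs to 8.

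The genes were also ranked by bound sequence within the gene and 1 kb either side, which is what base pairs given beside a gene mean from here on, whichever gene the list pairs the peak with. After Mnt (22597 bp) came jing (19813 bp), Ten-m (19665 bp), the MAP kinase pathway kinase Raf (17871 bp), CadN (17520 bp) and EcR (17279 bp). Next stood brat, a translational repressor that ends self-renewal in neuroblast daughters (17034 bp), E2f1 (15877 bp), kuz, the metalloprotease that cleaves Notch (15638 bp), erm (15563 bp), sick (14773 bp), the Notch inhibitor numb (14631 bp), osa, a subunit of the Brahma chromatin remodeller (14497 bp), CenG1A (14407 bp) and hng3 (14165 bp). In all, 152 protein-coding genes had over 5 kb bound and 30 had over 10 kb. At least 50% of the gene was covered in 486 genes, and 109 were covered whole, with a median span of 849 bp. Kdm4B had 12484 bp bound and Myc, the growth regulator opposed by Mnt, had 10245 bp, the most among genes that are not in the RNA table.

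All 15 of the genes with most bound sequence were listed in the RNA table, beside 4938 of all 13624 protein-coding genes. They are long, from 17810 bp (hng3) to 162060 bp (sick), and 1401 of 2725 genes of 6340 bp or more were listed. Brat was counted at 4552, 4422 and 3817 CPM in S1, S2 and S3, and CadN at 2241, 2054 and 1764 CPM. Ten-m stood at 1092, 1063 and 971 CPM. Raf stood at 86.3, 90.6 and 97.2 CPM and hng3 at 28.0, 33.8 and 39.7 CPM. Per kb of gene span the mean level was 92.8 CPM for brat and 1.89 CPM for Raf, so the most bound genes did not share 1 level of RNA. Means ± SD (n = 3 libraries) were 434 ± 7.35 CPM for E2f1, 1277 ± 61.2 CPM for osa and 834 ± 127 CPM for CenG1A.

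**Figure D3:**
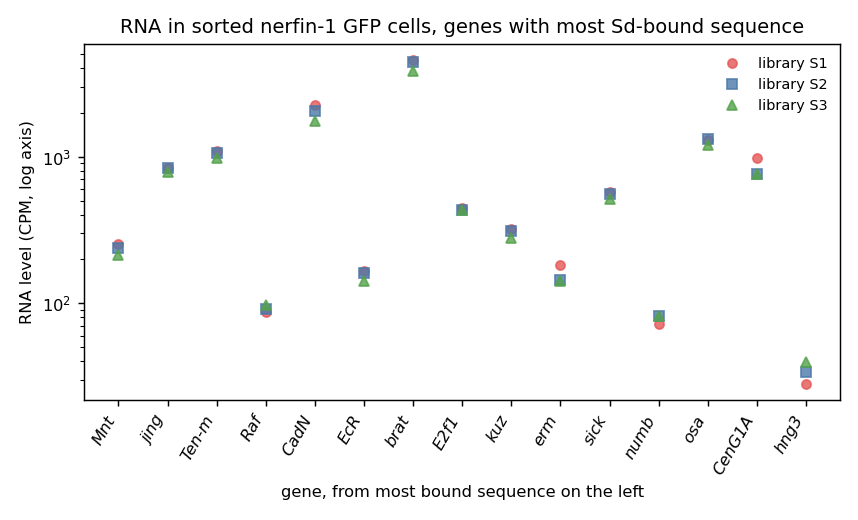
RNA level in CPM (vertical axis, log scale) in libraries S1, S2 and S3 for the 15 genes with most Sd-bound sequence, from most on the left. Points are single libraries; hng3 runs from 28.0 to 39.7 CPM and brat from 3817 to 4552 CPM, and since CPM is not divided by length, heights are to be read within a gene.

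Peaks were spread over all chromosome arms. The 5 large arms had 28.2 to 32.7 peaks per Mb, and the small chromosome 4 had 45.6 per Mb from 58 peaks, with 44 of its 79 protein-coding genes named (55.7%). Of 1339 windows of 100 kb, 247 held no peak (18.4%) and the median window held 3. The window with most peaks, 13, was chr3R:26000001-26100000, which contains most of the Enhancer of split complex. The window with most bound sequence, 28.5 kb in 6 peaks, was chr2R:13300001-13400000, which contains the 15432 bp peak at mir-184. Neighbouring peaks were a median of 13.9 kb apart, and 132 gaps were under 500 bp.

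The sd gene itself carried peaks. At sd (FBgn0003345, chrX:15804370-15827682) the peaks were of 825 bp at chrX:15806181-15807005, 1338 bp at chrX:15807128-15808465 and 4821 bp at chrX:15811590-15816410, and the last overlapped 2 ATAC peaks. The 825 bp and 1338 bp peaks overlapped no ATAC peak. The list pairs the 1338 bp peak with lncRNA:CR44384. Dam-Sd larvae, unlike Dam-only larvae, also carried the Dam-Sd fusion transgene, and whether its DNA added to the peaks at sd was not tested. RNA of sd stood at 377, 416 and 385 CPM (393 ± 20.6, SD, n = 3 libraries), a narrow range.

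Known partners and targets of Sd were named in 12 of 13 cases, beside 28.6% of all protein-coding genes. All 13 had a peak by position, beside 35.5%. Their median span was 15696 bp, and bantam is a microRNA gene of 81 bp. Of all protein-coding genes of 6340 bp or more, 49.8% were named and 58.0% had a peak by position. The 13 genes were put on the list because work in other tissues ties them to Sd. The cofactor gene vg had a peak of 906 bp over the end of the gene with the lower coordinate. The gene yki had a peak of 1003 bp shared with Gpat4 and another of 2044 bp close by. At the corepressor gene Tgi lay a peak of 1394 bp shared with Abp1. Among targets, Diap1, the inhibitor of caspases, had a single 3866 bp peak (chr3L:16039968-16043833). Myc had peaks of 4333 bp and 7376 bp that together covered 49.9% of the gene and overlapped 3 and 5 ATAC peaks. CycE, the G1 cyclin, had 3 peaks of 662, 2759 and 1140 bp. E2f1 had 7, the longest of 6394 bp with 4 ATAC peaks. Bantam (mir-ban) had peaks of 3375 bp and 2750 bp on either side of the hairpin. The Hippo regulators kibra and ex are also targets. Kibra had 1 peak of 2005 bp and fj 1 of 1378 bp. The peak named for ex, of 438 bp, lay 1859 bp outside the gene, while the 672 bp peak inside ex is paired in the list with lncRNA:CR43717. Mer, the remaining member, had a 1699 bp peak within 1 kb that the list pairs with CG14229.

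Of these 13 genes 5 were listed in the RNA table, among them sd, beside 4938 of all 13624 protein-coding genes. Diap1 stood at 791, 691 and 711 CPM, E2f1 at 443, 430 and 430 CPM, Tgi at 59.2, 57.7 and 62.2 CPM and yki at 34.1, 35.4 and 38.9 CPM. Vg, CycE, Myc, ex, kibra, fj, Mer and mir-ban were not listed.

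The Hippo pathway itself was bound in part. Of 15 members looked up, 7 were named (46.7%), beside 28.6% of all protein-coding genes. The Wilson interval of this share, 24.8 to 69.9%, includes 28.6%. By position 11 had a peak (73.3%), beside 35.5%. Median span of the 15 members was 10080 bp. Of all genes of 6340 bp or more, 49.8% were named and 58.0% had a peak by position. Named were yki, the kinases wts and Tao, the upstream regulators ex and kibra, the Golgi kinase fj and Tgi. The core kinase hpo, Mer, the protocadherin ft and the palmitoyltransferase app had peaks by position only. The scaffold genes sav and mats, the myosin gene dachs and the LIM protein gene jub had none.

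Genes that set and end neuroblast identity were all named, 13 of 13 looked up, beside 28.6% of all protein-coding genes, and 10 had a peak by position, beside 35.5%. Their median span was 14767 bp, and 49.8% of all genes of 6340 bp or more were named. Brat had 3 peaks, pros, the homeodomain factor that drives differentiation, had 5 by position with 9503 bp bound, and grh, a temporal factor, had 3. The basal determinant mira and the spindle adaptor insc had 2 each, aPKC had 1 with 4694 bp bound, and dpn, klu, baz and sna had 1. For ase, wor and tll the named peak lay outside the gene, at 2692, 1027 and 1398 bp. In the sorted cells 5 of the 13 were listed. Pros stood at 10826, 12384 and 10038 CPM, aPKC at 125, 141 and 151 CPM and sna at 63.6, 68.3 and 59.9 CPM, while dpn, wor, mira, insc, klu, grh, tll and baz were not listed. Named members thus included genes listed in the RNA table and genes that were not.

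The Notch pathway, through which neighbouring cells restrain each other's differentiation, was named in 9 of 11 genes (81.8%), beside 28.6% of all protein-coding genes. Median span of its genes was 22178 bp, and 49.8% of all genes of 6340 bp or more were named. Peaks stood at the receptor N (2 by position), the ligands Delta (4805 bp bound) and Ser (2180 bp), the transcription factor Su(H) (2768 bp) and its coactivator mam (3 peaks, 10311 bp). The ubiquitin ligases neur (3 peaks, 7739 bp) and mib1 (2134 bp) and the regulators kuz and numb were also named. The corepressor adaptor H and the secretase subunit Nct were not. Neither N, Delta nor Ser was listed in the RNA table, whereas mam stood at 961, 792 and 756 CPM. Its targets in the Enhancer of split complex were named in 7 of 11 cases (63.6%) and had a peak by position in 9. E(spl)mbeta-HLH had 3 peaks by position, and E(spl)m7-HLH, E(spl)malpha-BFM, E(spl)mgamma-HLH and E(spl)m2-BFM had 2. These genes are short and adjacent, with a median span of 957 bp, so 1 peak can count for several. Both listed and named were 4 members. E(spl)m7-HLH stood at 18.0, 24.7 and 20.2 CPM, E(spl)m8-HLH at 9.67, 12.4 and 11.7 CPM, E(spl)mbeta-HLH at 12.8, 17.0 and 14.7 CPM and E(spl)malpha-BFM at 7.87, 9.36 and 7.74 CPM.

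Temporal factors, which neuroblasts express in sequence and pass to their neurons, were named in 15 of 22 cases (68.2%), beside 28.6% of all protein-coding genes. Median span of these factors was 13381 bp, and 49.8% of all genes of 6340 bp or more were named. The most bound were erm and the RNA-binding protein gene Syp, each with 4 peaks by position and with 15563 and 13577 bp bound. The homeobox gene hbn had 6154 bp, the Pax6 gene ey 5716 bp, chinmo 3154 bp and Eip93F 2264 bp. The early factors hb, Kr and nub, and slp1, B-H1 and B-H2, had none, and hth had 2 by position only. Syp stood at 1331, 1255 and 1090 CPM, chinmo at 906, 885 and 728 CPM and Eip93F at 633, 504 and 402 CPM, with S1 the highest in all 3. RNA of cas was lowest in S1, at 143, 305 and 258 CPM.

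Axon guidance genes of the Slit, Netrin and Semaphorin systems were named in 17 of 17 cases, beside 28.6% of all protein-coding genes, and 16 were listed in the RNA table. Among ligands, sli had 4 peaks by position and 11178 bp bound, Sema1a 4 peaks and 11667 bp, Sema2b 4520 bp, NetB 3387 bp and NetA 2426 bp. Among receptors, PlexA had 3553 bp, Dscam1 3359 bp, robo3 3252 bp, the Netrin receptor fra 3 peaks with 3147 bp, robo1 2272 bp and robo2 2013 bp, while unc-5 had 753 bp, apart from its named peak, which lay 2589 bp away. The receptor Eph and its ligand Ephrin, both on chromosome 4, had 1223 and 823 bp. RNA of sli stood at 886, 912 and 822 CPM, of Dscam1 at 990, 1068 and 908 CPM and of fra at 432, 433 and 425 CPM. NetA was the member without an RNA value. These genes are long, with a median span of 35132 bp, and 67.7% of all RNA-listed protein-coding genes of 6340 bp or more were named.

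Cell adhesion genes were named in 15 of 20 cases (75%), beside 28.6% of all protein-coding genes, and 18 were listed in the RNA table. They too are long, with a median span of 47351.5 bp, and the share stood near the 67.7% of RNA-listed genes of 6340 bp or more. Besides CadN, Ten-m, Ten-a and kirre, Nrt had 6494 bp bound, Con 5316 bp, Dscam2 4850 bp, Dscam3 3092 bp and Fas2 2549 bp. Nrg was not named but had 3533 bp by position. CadN2, which lies beside CadN, and shg, the epithelial cadherin, had no peak. The named peak of Dscam4 lay 3021 bp away and that of trn 1561 bp away. The peaks named for Ten-m (431 bp) and Con (420 bp) lay 1794 and 4700 bp away, so the bound sequence of both comes from peaks paired with other genes.

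Other neuronal gene sets were named in part, beside 28.6% of all protein-coding genes and 67.7% of RNA-listed genes of 6340 bp or more. Pan-neuronal genes were named in 9 of 13 cases (69.2%), with elav (6724 bp), cpx (6366 bp), Appl (5424 bp) and fne (3419 bp) most bound, and with Rbp9, Syt1, jeb and Nckx30C not named. Vesicle release genes, with a median span of 26018.5 bp and 18 of 20 listed in the RNA table, were named in 12 of 20 cases (60%): unc-13, which primes vesicles, had 3 peaks, the calcium channel gene cac 2 by position, Syx1A 2448 bp and brp, a component of the active zone, 1135 bp, while Snap25, Syt1, Syt4, Syt7, Liprin-alpha and stj had no peak although listed in the RNA table. Of neurotransmitter genes 7 of 12 were named (58.3%), with 10278 bp at the acetylcholine synthesis gene ChAT and 5879 bp at the GABA synthesis gene Gad1, and a peak of 6745 bp lay 1550 bp from VGlut. All 5 LIM homeodomain genes were named, led by CG4328 (7074 bp) and Lim3 (5093 bp). Receptors for neurotransmitters had a smaller share named than all genes, but their Wilson intervals include the 28.6% of all genes. These run from 1.79 to 40.4% for nicotinic acetylcholine receptor subunits. For receptors of dopamine, octopamine and serotonin, with a median span of 36660 bp, they run from 3.74 to 37.9%. Both intervals lie below the 49.8% named among all genes of 6340 bp or more. That of the nicotinic subunits also lies below the 67.7% of listed genes of that span. Of unlisted genes of that span, 30.8% were named. Of the nicotinic acetylcholine receptor subunits 1 of 10 was named (nAChRalpha2), although 8 were listed in the RNA table and the median span was 37802.5 bp; nAChRalpha6, for instance, had no peak over 92934 bp at 350, 356 and 330 CPM. Of the receptors for dopamine, octopamine and serotonin 2 of 15 were named (Dop2R and Dop1R1), with 1 of 15 listed in the RNA table. Of the DIP genes, surface proteins that pair with dpr proteins, 2 of 11 were named but 6 of 11 had a peak by position.

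Genes of growth and chromatin were named in part. Cell cycle genes were named in 12 of 24 cases (50%), beside 28.6% of all protein-coding genes, and 18 had a peak by position (75%), beside 35.5%. After E2f1 and CycE stood dup, a replication licensing factor (3 peaks, 4848 bp), dap, the CycE inhibitor (4542 bp), and Dp, the E2f partner (3516 bp), while CycB, Cdk4, Rbf, polo and geminin had none. Several were lowest in library S1: CycA stood at 64.7, 111 and 106 CPM, stg at 64.1, 113 and 103 CPM and dap at 97.0, 151 and 148 CPM, whereas Dp stood at 246, 248 and 260 CPM. Wnt pathway genes were named in 14 of 20 cases (70%), including the receptor genes fz (6139 bp) and arr (4726 bp) and the beta-catenin gene arm (3980 bp). Polycomb group genes were named in 9 of 19 cases (47.4%, 27.3 to 68.3, an interval that includes 28.6%), among them Psc (3808 bp) and Su(z)2 (2470 bp) but not E(z), esc or Su(z)12. Trithorax group and remodeller genes were named in 8 of 20 cases (40%, 21.9 to 61.3, which also includes it), among them osa, kis (7200 bp) and trx (3002 bp). Mi-2 was not named although 2 peaks with 10569 bp lay at the gene. Corepressors were named in 6 of 10 cases (60%), with 9422 bp at Smr, 8026 bp at Sin3A and 2912 bp at CtBP. Median span was 14214 bp for Wnt pathway genes and 11797.5 bp for corepressors, and 49.8% of all genes of 6340 bp or more were named.

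Genes of other cell types were also in the list. Glial genes were named in 9 of 12 cases, beside 28.6% of all protein-coding genes, among them repo (370 bp), gcm (1248 bp), gcm2 (1771 bp), Eaat1 (1780 bp) and pnt (2594 bp), while 2 of 12 were listed in the RNA table. Muscle genes were named in 4 of 11 cases (36.4%, 95% Wilson interval 15.2 to 64.6), hemocyte genes in 4 of 10 (40%, 16.8 to 68.7) and testis genes in 2 of 16 (12.5%, 3.50 to 36.0), and each of these intervals includes the 28.6% of all genes.

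Families of genes used at the body surface, in the gut or in the senses were at the low end. None of 50 Twdl and Lcp cuticle genes and none of 22 Osi genes was named, with upper 95% Wilson limits of 7.13% and 14.9%. Named were 3 of 70 Cpr cuticle genes (4.29%), 4 of 66 ionotropic receptor genes (6.06%), 4 of 51 odorant-binding protein genes (7.84%), 1 of 27 Jon and Try proteases (3.70%), 10 of 60 gustatory receptor genes (16.7%) and 11 of 59 odorant receptor genes (18.6%). Except for 2 Obp genes no member of these families was listed in the RNA table. The genes are short, with median spans of 1093.5 bp for Cpr, 1397 bp for gustatory and 1462 bp for odorant receptor genes. Of all unlisted protein-coding genes, 13.3% of those of 168 to 1023 bp were named. For 1024 to 1704 bp the share was 15.8% and for 1705 to 2798 bp 17.8%, close to the gustatory and odorant receptor shares. Housekeeping families stood close to the share of all genes: 26 of 88 ribosomal protein genes were named (29.5%), 20 of 71 mitochondrial ribosomal protein genes (28.2%) and 12 of 40 genes of complex I named ND (30%). By position the ribosomal protein genes stood at 44 of 88 (50%), beside 35.5% of all genes. Rab genes were named in 18 of 35 cases, kinesin genes in 11 of 23 and heat shock genes named Hsp in 11 of 18, beside 28.6% of all genes. Lower 95% Wilson limits were 35.6% for Rab, 38.6% for Hsp and 29.2% for kinesin genes, the last close to 28.6%. Median span was 2731 bp for Rab and 2277.5 bp for Hsp genes, and 23.6% of all genes of 1705 to 2798 bp were named. For kinesin genes it was 5012 bp, and 33.4% of all genes of 2799 to 6336 bp were named. The Hsp70 copies are nearly identical, so reads may have been split among them. Hsp70Ba stood at 4952, 2769 and 1591 CPM, highest in S1. In all, 44 of 72 lists and families had a larger share named than all protein-coding genes (31 of 33 lists and 13 of 39 families). Shares whose Wilson interval includes 28.6% are counted too, and the tally takes no account of gene span.

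**Figure D4:**
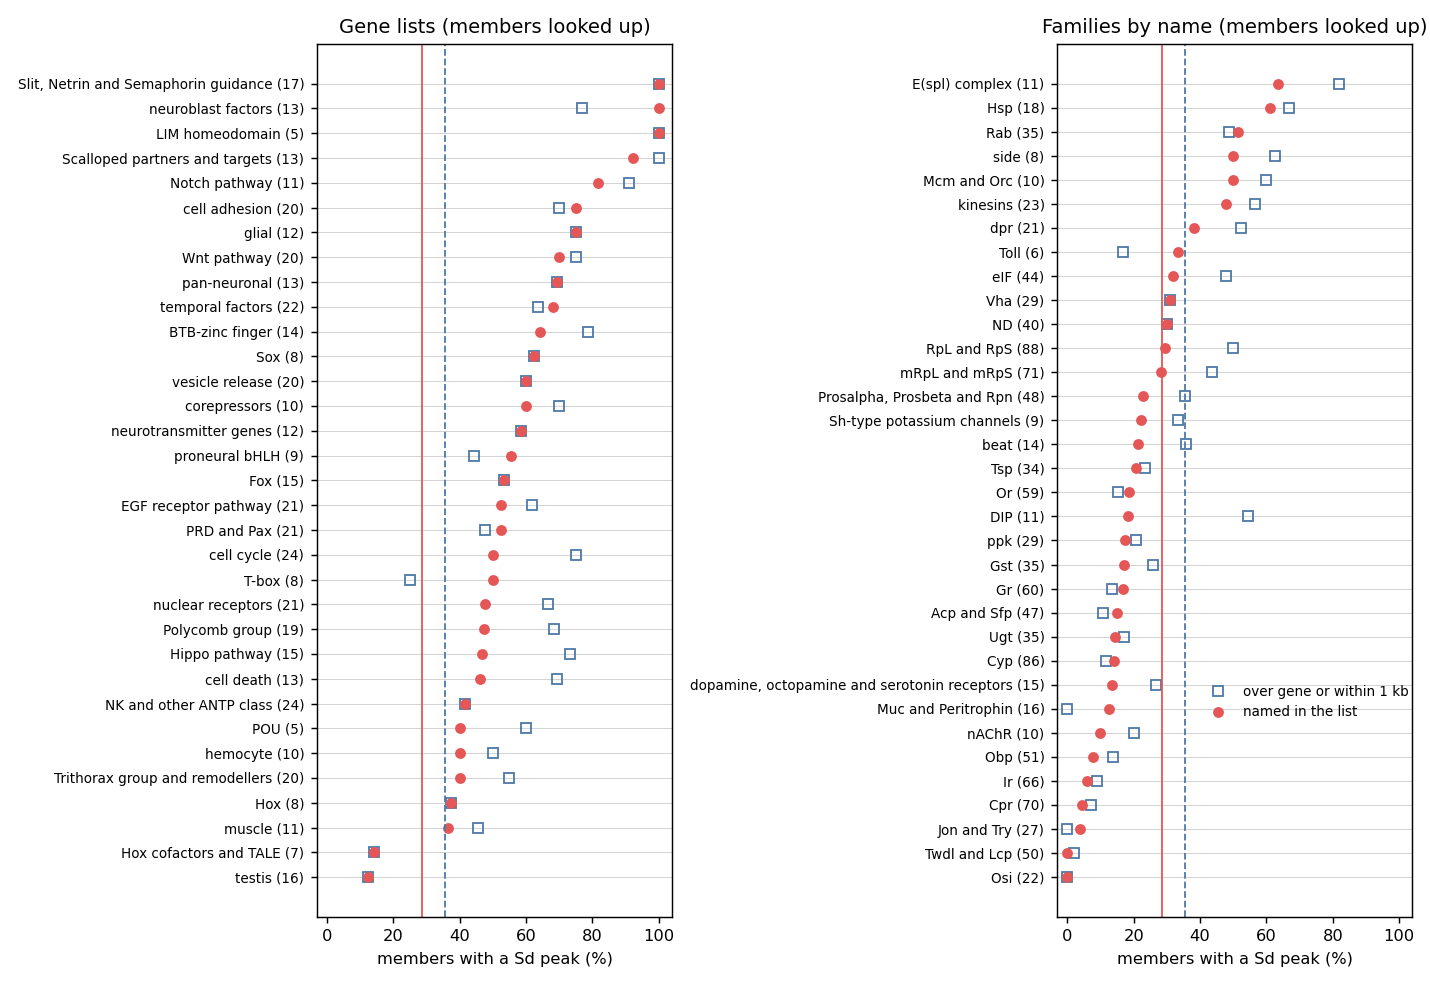
Share of members with a Sd peak (horizontal axis, percent) for each gene list (left) and name-based protein-coding family (right), with the number looked up in brackets. Filled circles are members named in the authors' list and open squares members with a peak over the gene or 1 kb either side; the solid line is the share of all protein-coding genes named (28.6%) and the dashed line their share by position (35.5%). Slit, Netrin and Semaphorin genes are at 100% by both counts and Osi genes at 0.

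Genes without protein products made up part of the list. Long non-coding RNA genes called lncRNA were named in 553 of 1795 cases (30.8%) and microRNA genes in 64 of 235 (27.2%). Both shares stood close to the 28.6% of protein-coding genes. Lower shares were found for tRNA genes, 48 of 295 (16.3%), and snoRNA genes, 39 of 243 (16.0%). Antisense RNA genes called asRNA were named in 84 of 466 cases (18.0%). By position the lncRNA share was 28.1% and the snoRNA share 39.9%, beside 35.5% of protein-coding genes. Many snoRNA genes lie inside other genes. Besides bantam, mir-279 and mir-13a each had 2 peaks by position. The lncRNA:CR44357 gene on X, which spans 239347 bp, had 9 peaks by position, more than any protein-coding gene, and none was paired with it.

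Named genes were longer than the others. Their median span was 3720.5 bp, against 1860 bp for protein-coding genes that were not named. Over 5 equal groups of gene span from shortest to longest, 16.2%, 19.97%, 23.6%, 33.4% and 49.8% of genes were named. Within each of the 5 groups, genes listed in the RNA table had the larger share named: 32.1% of listed against 13.3% of unlisted genes in the shortest group, 29.2% against 15.8%, 33.9% against 17.8% and 46.3% against 21.9% in the next ones, and 67.7% against 30.8% in the longest.

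**Figure D5:**
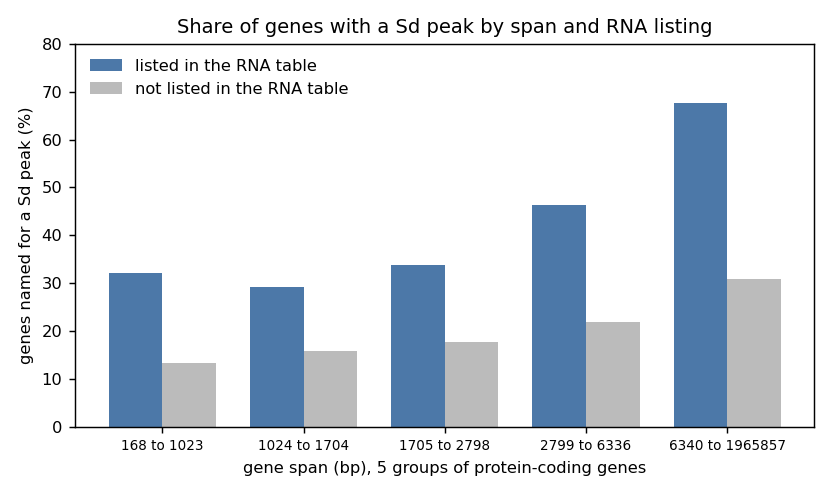
Share of protein-coding genes named for a Sd peak (vertical axis, percent) in 5 groups of gene span in bp, for genes listed in the RNA table (blue, left bar) and not listed (grey, right bar). In each group the listed genes have the larger share, up to 67.7% against 30.8% in the longest group.

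More of the named genes had RNA in the sorted cells. Of the named protein-coding genes 2260 of 3896 were listed (58.0%, 56.5 to 59.5), against 2678 of 9728 genes that were not named (27.5%, 26.7 to 28.4), a difference of 30.5 percentage points (95% Newcombe interval 28.7 to 32.3, over genes, which are not replicates). By number of peaks by position, for 0, 1, 2 and 3 or more, the share listed was 24.4%, 55.5%, 65.0% and 74.7%. Median gene span rose with it, at 1776, 2956.5, 5153 and 27036 bp. In 4 groups by the longest named peak, from shortest to longest, the share listed was 49.4%, 53.6%, 61.7% and 67.3%. Here too median span rose, at 2892, 3025, 3705.5 and 5837 bp. Read the other way, 30.7%, 35.4%, 43.9%, 51.0% and 67.9% of listed genes were named over 5 groups from the lowest to the highest RNA level. Median span also differed over these groups, at 1326 bp in the lowest and 8528.5 bp in the highest.

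Among listed genes the level was higher for named ones in each library. The median was 117 CPM for named genes and 61.8 CPM for the rest. The difference of median log2(CPM + 1) was 0.92, and it was 0.95 in S1, 0.93 in S2 and 0.87 in S3. Within the 5 groups of gene span the difference was smaller, at 0.28, 0.30, 0.16, 0.26 and 0.59 from shortest to longest. Divided by gene span, the median was 20.8 CPM per kb for named genes and 22.1 CPM per kb for the rest, a difference of −0.088 on the log2 scale with a 95% interval over genes that includes 0 (−0.16 to 0.0035). The higher level of named genes was thus not seen per kb of gene span, although it was seen within each of the 5 groups of span. Gene span includes introns, and transcript lengths were not used here.

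Abundant transcripts were found on both sides. Among the 10 named genes with most CPM per kb of gene span were the cytoskeletal genes Act5C (8193, 8476 and 9295 CPM) and alphaTub84B (4022, 4104 and 4631 CPM) and the heat shock gene Hsp26 (2910, 1948 and 1217 CPM). Among the 10 without a named peak were Hsp23 (4414, 3621 and 3306 CPM) and the ribosomal protein genes RpL41 (912, 1096 and 1234 CPM) and RpS2 (1287, 1334 and 1503 CPM). No Sd peak lay within 1 kb of RpL41 or RpS2, while 1 lay at Hsp23.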

How the data were processed

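The authors deposited the Sd peaks as interval coordinates with gene identifiers and no score. Per the submitters' processing notes the build was dm6 and the tools were Bowtie2, MACS2, bedtools, Subread, featureCounts and edgeR; the sources used here tie none of them to a step or setting. The RNA values are raw read counts per gene as deposited by the authors, for 5135 genes kept as expressed; listed counts came to 43555895, 44657928 and 57468071 in S1, S2 and S3. These totals leave out unlisted genes, and DamID depth is unknown here. RNA columns could be tied to the group but not to replicate numbers, and the pools hold sorts of different days, so their SD is that between pools.

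Distinct intervals were counted once and converted to 1-based coordinates. Gene positions came from the RefSeq table of the Release 6 plus ISO1 MT assembly. Of 4863 identifiers, 99 matched no symbol, and 298 protein-coding genes with newer identifiers were left out. CPM were scaled to 1000000 listed counts, and log2 used a pseudocount of 1. Intervals are 95% and cover counting over genes or peaks only. Computations used Python 3.11.15, pandas 2.3.3 and scipy 1.17.1, and edgeR 4.0.16 and DESeq2 1.42.0 for alternative library sizes; functions were tested on simulated data.

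Genes named follow a written rule: sd, the genes with most peaks, most bound sequence, longest and shortest peaks or most RNA, and members of lists by number of peaks; further members of lists were named after their values were seen. Members, lists and rule were chosen with earlier results of these data known.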

Additional observations from a re-analysis of the deposited data

How the results depend on the processing

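The main choice is how a peak is tied to a gene. The share of protein-coding genes with a peak was 27.4% where a peak had to overlap the gene, 35.5% with 1 kb either side, 56.8% with 5 kb either side and 15.3% with only the longer 50% of peaks. The share of such genes with at least 2 peaks was 19.1% with 1 kb either side and 1.82% with the longer 50% of peaks. The difference in RNA listing was 33.2 points with 1 kb either side and 33.0 points with the longer 50% of peaks. The difference in RNA level was 0.75 with 1 kb either side, and −0.088 for CPM per kb of gene span (95% interval −0.16 to 0.0035), an alternative chosen after seeing the data; leaving out each library in turn gave 0.90 to 0.94. Median peak length was 1186 bp without peaks under 300 bp. Of 72 lists and families, 57 stayed inside their 95% interval with 1 kb either side, 15 did not, and 9 changed side of the share of all genes: T-box, DIP, beat, Toll, mRpL and mRpS, ND, Vha, lncRNA and snoRNA. The cause of these changes was not tested beyond the construction of each alternative. Merging close peaks gave 3932 peaks; merging, another pseudocount, a count minimum and other library sizes left the medians, shares and differences they touch within their intervals.

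No paired analysis was possible because the peak list holds no value per replicate and the RNA columns carry no replicate number of the labels. The share of gene starts covered, the TEAD core in promoters and RNA per coding length were not run, since strand, sequence and coding length were not in the tables used here. Peaks carry no height, so weak and strong binding cannot be told apart, and the depth behind each peak is unknown.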

Other observations

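Other parts of the list hold transcription factor families and trans-spliced genes not described above. Beside 28.6% of all protein-coding genes, Fox genes were named in 8 of 15 cases and nuclear receptor genes in 10 of 21. PRD and Pax genes were named in 11 of 21 cases and Sox genes in 5 of 8. BTB-zinc finger genes were named in 9 of 14 cases and EGF receptor pathway genes in 11 of 21. The Wilson interval of the nuclear receptor share, 28.3 to 67.6%, includes 28.6%. Median span was 22386 bp for nuclear receptor, 11949 bp for PRD and Pax and 8700.5 bp for Sox genes. It was 41405 bp for BTB-zinc finger and 9416 bp for EGF receptor pathway genes. Of all genes of 6340 bp or more, 49.8% were named. Fox genes had a median span of 3826 bp, and 33.4% of all genes of 2799 to 6336 bp were named. The Hox genes were named in 3 of 8 cases (Ubx, Abd-B and Antp), and the Hox cofactor and TALE genes in 1 of 7 (ara, through a peak 1094 bp away). The reference table carries 24 entries of the biotype segment, which are pieces of trans-spliced genes, and all 24 were named; they belong to mod(mdg4) and lola, overlap one another and share a few peaks, so they are not separate cases.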
